A study of Mus musculus with 12 samples.

Results

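The miR-206 and miR-133b cluster of mouse chromosome 1 was followed in gastrocnemius muscle, the large muscle of the calf, by small RNA sequencing. Its 4 mature arms, mmu-miR-206-3p, mmu-miR-206-5p, mmu-miR-133b-3p and mmu-miR-133b-5p (written without mmu, for mouse, from here on), were taken by name from a table of 1900 mature miRNAs. The muscles came from male C57BL/6 mice that carried no other genotype or treatment in the labels, 6 young animals of 6 months and 6 aged animals of 24 months, with 1 library each. Levels are given in FPKM, a read number divided by miRNA length and by library depth. The table gave no reads, but its low values lay in steps of whole reads, from which between 120437 and 7761592 mapped reads per library were estimated. Young replicate 6 and aged replicate 3 were far deeper than the other libraries, and aged replicate 5 was the shallowest. Young replicates 1 to 5 had 212196 to 609777 reads, while aged replicates 1, 2, 4 and 6 had 1228036 to 1665959. Depth thus went partly with age.

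MicroRNAs are cut from a hairpin as a pair of arms, and usually 1 arm, the guide, is loaded into the silencing complex and pairs with target mRNAs through its seed, bases 2 to 8. miR-206 and miR-133b belong to the miRNAs that skeletal muscle expresses far above other tissues. miR-206 is known as a skeletal muscle miRNA that is induced by loss of the motor nerve and during regeneration, and that promotes re-innervation and the differentiation of satellite cells, the stem cells of muscle. It shares its seed with miR-1, the abundant miRNA of heart and skeletal muscle. miR-133b is a close relative of miR-133a, and the miR-133 family is known for acting on the proliferation and differentiation of myoblasts.

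The sequences of the 4 arms are shown because the seeds tell the family of each arm. They were taken from RefSeq on build GRCm38.p6, run 5′ to 3′, and have the seed in capitals. All 4 arms were found in that sequence collection.
miR-206-3p: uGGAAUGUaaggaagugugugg
miR-206-5p: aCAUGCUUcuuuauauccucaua
miR-133b-3p: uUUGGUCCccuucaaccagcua
miR-133b-5p: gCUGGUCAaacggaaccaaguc

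The hairpins are shown for the position of the arms, which are in capitals.
Mir206: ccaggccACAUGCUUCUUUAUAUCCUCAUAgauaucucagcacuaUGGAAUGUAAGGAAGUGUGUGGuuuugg
Mir133b: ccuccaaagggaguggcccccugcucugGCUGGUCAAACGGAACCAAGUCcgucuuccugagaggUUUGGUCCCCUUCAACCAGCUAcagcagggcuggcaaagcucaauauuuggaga

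Mir206 lies at chr1:20679010-20679082 and Mir133b at chr1:20682769-20682887, both on the plus strand, with 3686 bases between them. Both lie within Lincmd1 (chr1:20669882-20682958, plus strand), a long noncoding RNA gene of muscle that GENCODE M21 lists as Gm28653. In the transcript with 3 exons Mir206 falls in the last intron, while Mir133b falls wholly in exon 3 (chr1:20682713-20682958). A second annotated transcript, with 1 exon from 20679023 to 20684298, takes in all of Mir133b and 60 of the 73 bases of Mir206. The guide arm miR-206-3p is at chr1:20679055-20679076 and miR-133b-3p at chr1:20682834-20682855. Among the other miRNAs of the table with a sequence, miR-6349 and miR-6382 carried the seed of miR-206-3p, and both were listed at 0 in all 12 libraries. No sequence was printed for miR-1a-3p and miR-133a-3p.

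The 2 guide arms behaved differently with age, and the 2 passenger arms were not read at all. miR-206-3p, a low to moderate miRNA in this muscle, rose about 3-fold in aged muscle. miR-133b-3p, which was far more abundant, had a fitted difference of -7.33% with a 95% confidence interval from -20.2% to 7.64%. miR-206-5p and miR-133b-5p were listed at 0 in every library of both ages. The levels refer to whole muscle, in which fewer or more cells of a type and less or more RNA per cell cannot be told apart.

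In young muscle the level of miR-206-3p had its lowest value at 152 FPKM (replicate 3), its median at 622 FPKM and its highest value at 1951 FPKM (replicate 2). In aged muscle it ran from 1278 FPKM (replicate 1) over a median of 1972 FPKM to 2684 FPKM (replicate 2). Each of the 6 aged libraries exceeded the young median, and 3 of them exceeded every young library. Of the young libraries 5 lay below the lowest aged library, and young replicate 2 alone reached into the aged range.

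**Figure D1:**
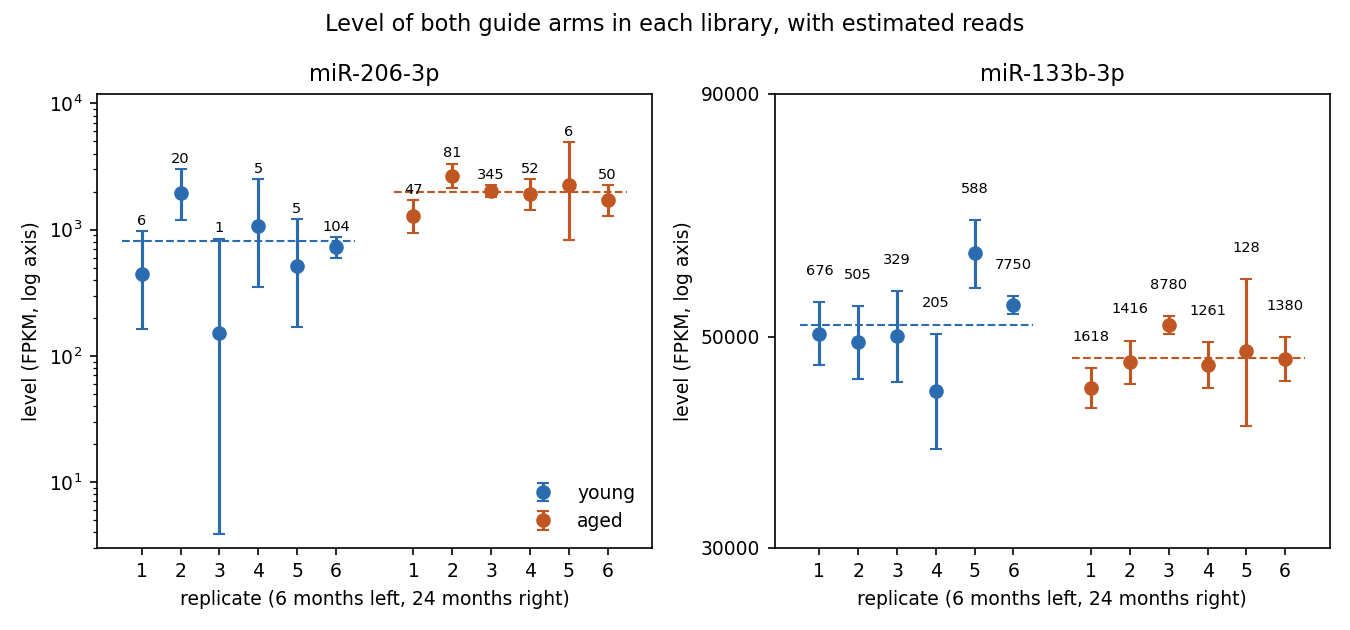
Level in FPKM (log axis, with separate ranges) of miR-206-3p and miR-133b-3p in each of 6 young and 6 aged libraries; points are libraries, bars are exact Poisson 95% intervals of the estimated reads printed above them, and dashed lines are group means. The young libraries of miR-206-3p spread from 152 to 1951 FPKM and the aged from 1278 to 2684 FPKM, while the ages overlap for miR-133b-3p.

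The means were 812 ± 637 FPKM (SD, n = 6) in the young group and 1981 ± 480 FPKM (SD, n = 6) in the aged group, which is 2.44-fold. On the scale log2(FPKM + 48.2), where 48.2 FPKM is a pseudocount, the change was 1.54 (SE 0.39, 95% confidence interval 0.74 to 2.35), or 2.92-fold (1.67 to 5.08). This SE and interval come from limma, which draws the spread towards that of miRNAs of like level. The SE was 0.45 without the trend and 0.34 with the replicate number as a block. In limma over the 482 miRNAs above 0 in at least 5 libraries, the adjusted p of miR-206-3p was 0.0296 after Benjamini-Hochberg adjustment over all of them. Of these 482 miRNAs, 14 or 2.9% had an adjusted p under 0.05, 3 of them higher (0.622%) and 11 lower (2.28%) in aged muscle. Some of the 11 repeat others with identical values, so they are fewer distinct signals. The median log2 change of all 482 was 0.07. The unadjusted p of miR-206-3p was 0.000552 in limma, where 62 or 12.9% of the miRNAs were under 0.05, and that of miR-133b-3p was 0.304. The ages did not overlap for 13 or 2.7% of the miRNAs, and neither guide arm was among them. By size of the rise miR-206-3p was number 4 of 482, and by p-value number 9.

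The call was close to the threshold. It was kept under 12 of 27 other settings and lost under 15, with adjusted p from 0.00248 to 0.198, while the log2 change stayed positive under all 27, from 1.04 to 1.86. Leaving out young replicate 2, the high young library, gave a change of 1.86 (limma adjusted p = 0.00248), and leaving out young replicate 3, the low one, gave 1.19 (limma adjusted p = 0.0509). The limma adjusted p was also above 0.05 without young replicate 1 (0.0674), young replicate 5 (0.0611), aged replicate 2 (0.0715), aged replicate 3 (0.0653), aged replicate 4 (0.0569), aged replicate 5 (0.0746) or aged replicate 6 (0.0595). A two-sided exact permutation test of miR-206-3p alone gave p = 0.00866 before adjustment and 0.155 after adjustment over the 482 miRNAs.

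**Figure D2:**
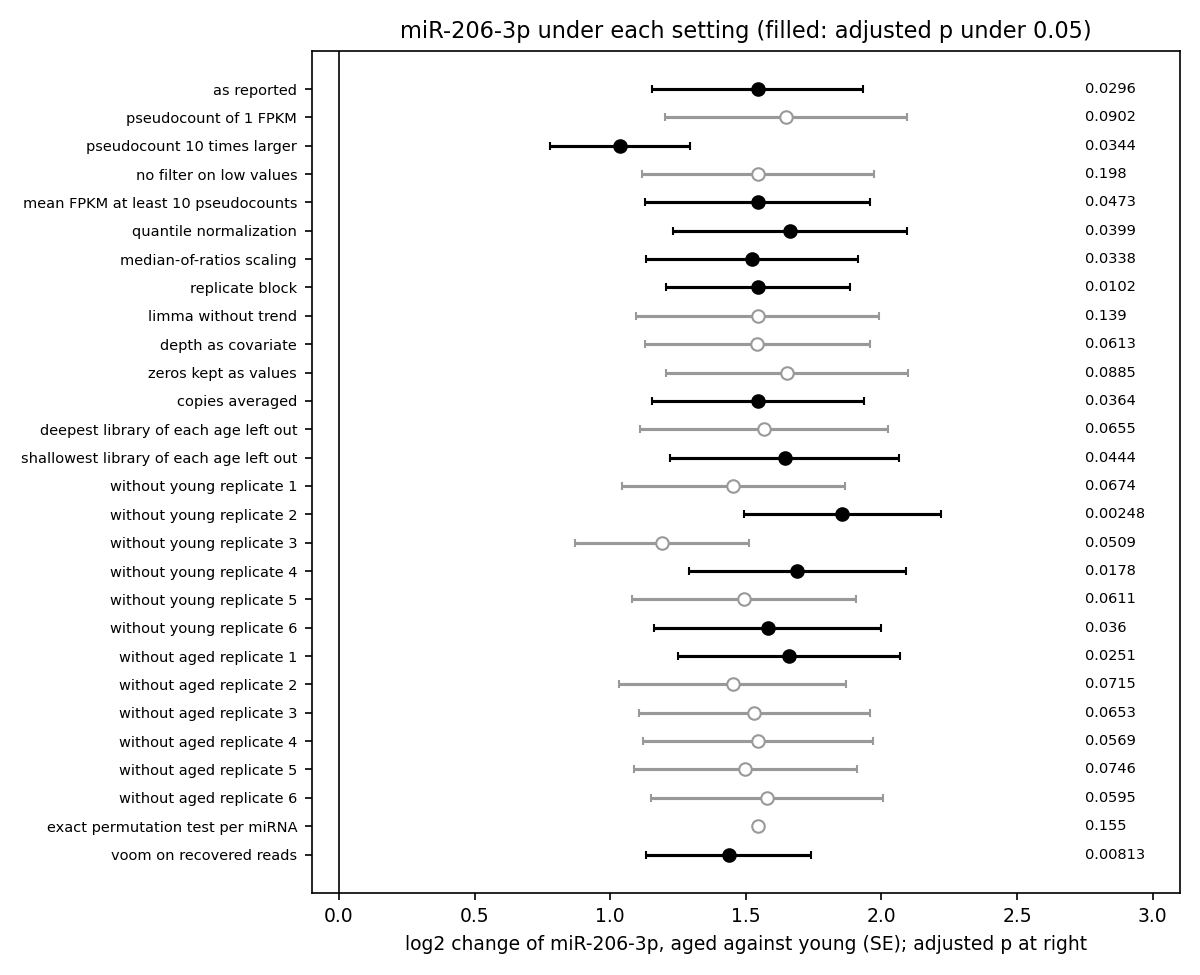
Log2 change of miR-206-3p in aged against young muscle with its SE under the reported fit and 27 other settings, with the adjusted p at the right and filled points for adjusted p under 0.05. Every estimate lies above 0, between 1.04 and 1.86, while the adjusted p falls on both sides of 0.05.

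The depth behind the value differed strongly between libraries. In young replicates 1 to 6 miR-206-3p was read an estimated 6, 20, 1, 5, 5 and 104 times, and in aged replicates 1 to 6 it was read 47, 81, 345, 52, 6 and 50 times. The lowest young level thus rested on 1 read, whose exact Poisson 95% interval is 3.85 to 848 FPKM, and the level of aged replicate 5 rested on 6 reads, with an interval of 831 to 4929 FPKM. Such intervals cover counting error only, since reads are not independent molecules after PCR.

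The deepest library of each age gave the most precise levels. Young replicate 6 stood at 724 FPKM (592 to 878 FPKM) and aged replicate 3 at 2020 FPKM (1813 to 2245 FPKM), a 2.79-fold difference between those 2 libraries. Without both of them the log2 change was 1.57 (limma adjusted p = 0.0655), and without the shallowest library of each age it was 1.64 (limma adjusted p = 0.0444). When the recovered reads were weighted by their precision with voom, the change was 1.44 (SE 0.30, limma adjusted p = 0.00813). Summed over libraries, 141 reads among 8549817 in young muscle come to 16.5 RPM (depth-scaled reads), and 581 among 13470682 in aged muscle to 43.1 RPM. These sums rest mainly on the 2 deep libraries.

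The level of miR-206-3p was spread more widely over the young than over the aged libraries. The SD of log2(FPKM + 48.2) for miR-206-3p was 1.13 in young and 0.36 in aged muscle. Among the 64 other tested miRNAs whose mean FPKM lay within 2 times that of miR-206-3p, the median SD was 0.44 in young and 0.41 in aged muscle. Of these 64 miRNAs, 3 had a wider spread than miR-206-3p in young muscle, and 38 had a wider spread in aged muscle. These 64 were matched on the mean over all 12 libraries and not on the lower young level, and 4 of the 6 young values rested on 1 to 6 reads. The difference in spread was not tested, and counting error was not separated from variation between animals.

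miR-133b-3p was steady. Its level ran from 43841 FPKM over a median of 50186 FPKM to 61147 FPKM in young muscle, and from 44146 FPKM over a median of 47151 FPKM to 51419 FPKM in aged muscle. The aged range lay wholly within the young range. The means were 51443 ± 5763 FPKM (SD, n = 6) and 47473 ± 2377 FPKM (SD, n = 6). The log2 change was -0.11 (SE 0.10, 95% confidence interval -0.33 to 0.11, limma adjusted p = 0.711). Its size was below the SD between young libraries, 0.16 on the same scale, and above the SD between aged libraries, 0.07. This arm rested on 128 to 8780 estimated reads per library, and ranked 37th to 44th among the miRNAs of each library. miR-206-3p ranked 137th to 276th in young and 122nd to 158th in aged libraries.

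With an SD of 0.16 in young and 0.07 in aged muscle on the log2 scale, miR-133b-3p was also one of the evenest miRNAs of its level. Of 29 other tested miRNAs within 2 times its mean FPKM, 26 had a wider spread in young and 26 in aged muscle.

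The 2 guide arms were then set against each other, since they come from neighbouring hairpins. miR-133b-3p exceeded miR-206-3p by 25.3-fold to 329-fold in young libraries, with a median of 93.4-fold, and by 17.5-fold to 34.5-fold in aged libraries, with a median of 24.9-fold. The log2 ratio of miR-206-3p to miR-133b-3p was -6.24 ± 1.18 (SD, n = 6) in the young group and -4.58 ± 0.324 (SD, n = 6) in the aged group, higher by 1.65 with age (two-sided exact permutation test, p = 0.00866, adjusted p = 0.0162 over the 3 pairs of miRNAs compared). This difference was larger than the SD of either age, though the ages overlapped, with young replicate 2 at -4.63 and aged replicate 1 at -5.06. It passed 0.05 under all 18 other settings tried (unadjusted p from 0.000279 to 0.0317). Since miR-133b-3p was steady, this ratio mostly repeats the change of miR-206-3p. The exact permutation p of miR-206-3p alone, before adjustment, was also 0.00866. The p-values of the 18 settings were not adjusted over all tested miRNAs. The ratio is therefore no separate support for the change of miR-206-3p.

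**Figure D3:**
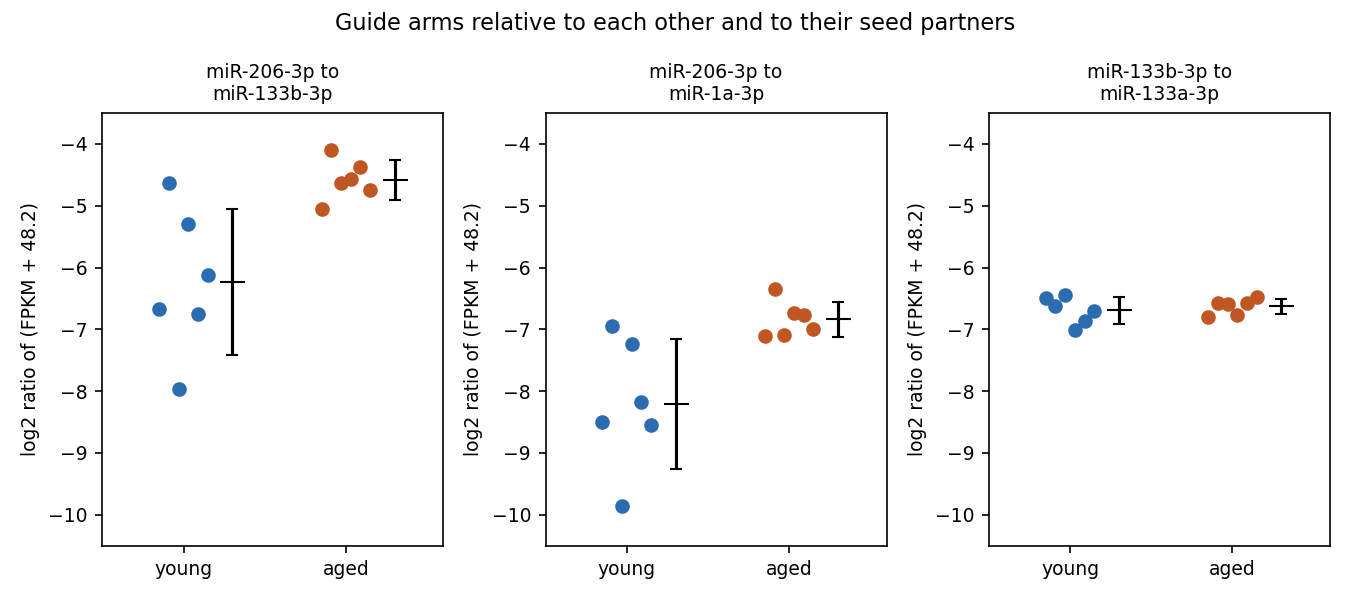
Log2 ratios, with 48.2 FPKM added to both levels, of miR-206-3p to miR-133b-3p, miR-206-3p to miR-1a-3p and miR-133b-3p to miR-133a-3p in 6 young and 6 aged libraries; points are libraries, black bars are the mean with its SD. Both ratios of miR-206-3p are higher in aged muscle (-6.24 to -4.58 and -8.21 to -6.84), and that of miR-133b-3p to miR-133a-3p lies near -6.7 in both ages.

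Within an age, the level of miR-206-3p showed no detectable relation to that of miR-133b-3p. In young muscle Pearson's r was -0.25 (exact permutation p = 0.676) and Spearman's rho -0.43 (exact permutation p = 0.419). In aged muscle they were 0.53 (exact permutation p = 0.249) and 0.49 (exact permutation p = 0.356). Adjusted over both ages, the p-values of r were 0.676 and 0.497 and those of rho 0.419 in both. Without the 2 libraries farthest from the median of miR-206-3p, r was -0.66 in young and 0.35 in aged muscle. With 6 libraries an age, r is known only roughly, and without aged replicate 1 the aged r was -0.07.

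The seed partner of miR-206-3p is miR-1a-3p, whose level, summed over 2 rows of the table that differed by at most 0.13 on the log2 scale, was 205783 ± 50199 FPKM (SD, n = 6) in the young group and 229086 ± 34666 FPKM (SD, n = 6) in the aged group. Its log2 change was 0.17 (SE 0.14, limma adjusted p = 0.651). miR-206-3p made up 0.386% ± 0.267 (SD, n = 6) of the sum of both in young and 0.859% ± 0.187 (SD, n = 6) in the aged group. The log2 ratio of miR-206-3p to miR-1a-3p was -8.21 ± 1.05 (SD, n = 6) in the young group and -6.84 ± 0.289 (SD, n = 6) in the aged group, higher by 1.37 (two-sided exact permutation test, p = 0.0108, adjusted p = 0.0162 over the 3 pairs). It passed 0.05 before adjustment under all 18 other settings (p up to 0.0317), but in limma over the ratios of all tested miRNAs to miR-1a-3p its adjusted p was 0.0800.

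The relative of miR-133b-3p, miR-133a-3p, ranked between 1 and 3 in every library and stood at 5367290 ± 1029294 FPKM (SD, n = 6) in the young group and 4709737 ± 332187 FPKM (SD, n = 6) in the aged group, summed over 2 rows that differed by at most 0.02 on the log2 scale. miR-133b-3p made up 0.967% ± 0.142 (SD, n = 6) of the sum of both in young and 1.002% ± 0.0853 (SD, n = 6) in the aged group. The log2 ratio of miR-133b-3p to miR-133a-3p was -6.69 ± 0.220 (SD, n = 6) in the young group and -6.63 ± 0.126 (SD, n = 6) in the aged group. They differed by 0.06 (two-sided exact permutation test, p = 0.567, limma 95% confidence interval -0.17 to 0.29). Without young replicate 4 this difference was -0.0037.

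miR-133a-3p and miR-133b-3p are nearly identical over their whole length, and it is not stated how reads that fit both were assigned. The SD of their log2 ratio over the 12 libraries was 0.174, the fifth smallest of the ratios of miR-133b-3p to 481 other tested miRNAs, whose median SD was 0.66. The ratio of miR-133b-3p to miR-206-3p, its neighbour on the chromosome, had an SD of 1.19 and came 453rd. The ratios of miR-206-3p to all 481 others were wide too, with a median SD of 1.25, and among them miR-133b-3p came 194th. The part of shared reads in the level of miR-133b-3p was not tested.

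The tested miRNAs most like miR-206-3p were named by the smallest SD of the log2 ratio to it over the 12 libraries, among 199 with a mean FPKM within 8 times its own. These were miR-34a-5p (SD 0.68), miR-155-5p (SD 0.83) and miR-203-3p (SD 0.84). Age was not removed from this SD, so miRNAs with a like change were favoured. Their changes with age are therefore not independent of the choice. miR-34a-5p, known as a target of p53, had means of 744 ± 351 FPKM (SD, n = 6) in the young group and 1603 ± 357 FPKM (SD, n = 6) in the aged group. Its log2 change was 1.23, with a limma adjusted p of 0.0626. miR-155-5p, known from immune cells, had a log2 change of 0.71 (limma adjusted p = 0.344), and miR-203-3p, known from epithelia, by 0.72 (limma adjusted p = 0.215).

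For miR-133b-3p the nearest of 79 candidates were miR-151-5p (SD 0.12), miR-101b-3p (SD 0.16) and miR-101a-3p (SD 0.17). Their log2 changes were -0.12, -0.24 and 0.08, with limma adjusted p from 0.344 to 0.797. These likenesses are descriptions, and the libraries share their depth differences.

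Both passenger arms were listed at 0 in all 12 libraries, among 22020499 estimated mapped reads. For miR-206-5p, no read against 722 of miR-206-3p allows up to 0.416% of the guide arm (3 reads). That is a wide limit. Of 97 other hairpins whose more abundant arm had at least as many reads, 35 had a less abundant arm below that share, and 8 had one at 0, miR-133b among them.

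For miR-133b-5p, no read against 24636 of miR-133b-3p allows up to 0.0122% of the guide arm. Of 25 other hairpins with as many reads, none had an arm at 0 and 2, miR-10a and miR-10b, lay below that share, where the median was 0.477%. In the relative miR-133a the 5p arm came to between 0.246% and 0.342% of the 3p arm in FPKM. With no read in either passenger arm, neither their change with age nor the balance of the arms could be tested.

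Of 8 other muscle-enriched miRNAs, 6 were tested by limma, and 0 passed an adjusted p of 0.05 in either direction. None had an unadjusted p under 0.05, and none passed by voom. Of all 482 miRNAs 14 or 2.9% passed by limma adjusted p, 62 or 12.9% by unadjusted p and 16 by voom. With 6 miRNAs, 0 is close to those shares. Adjusted over all 482 miRNAs the permutation test called 0, so its lack of calls says nothing about a list. The median log2 change of the 6 was 0.14 against 0.07 over all 482 miRNAs. Of the 6, 4 were higher and 2 lower, where 267 of all 482 were higher and 215 lower. The miRNAs embedded in slow and cardiac myosin genes were rare. miR-208b-3p, from the slow myosin gene Myh7, was above 0 in 7 libraries and had a log2 change of 1.29 (limma adjusted p = 0.552, 95% confidence interval -0.55 to 3.12). miR-499-5p, from Myh7b, was above 0 in 8 libraries, with a change of 0.79 (limma adjusted p = 0.613, -0.45 to 2.03). miR-208a-3p, the miRNA of the heart myosin gene Myh6, was listed at 0 in all libraries. For the labelled tissue, miR-133a-3p and miR-1a-3p ranked from 1 to 3 and from 17 to 22 in the libraries.

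**Figure D4:**
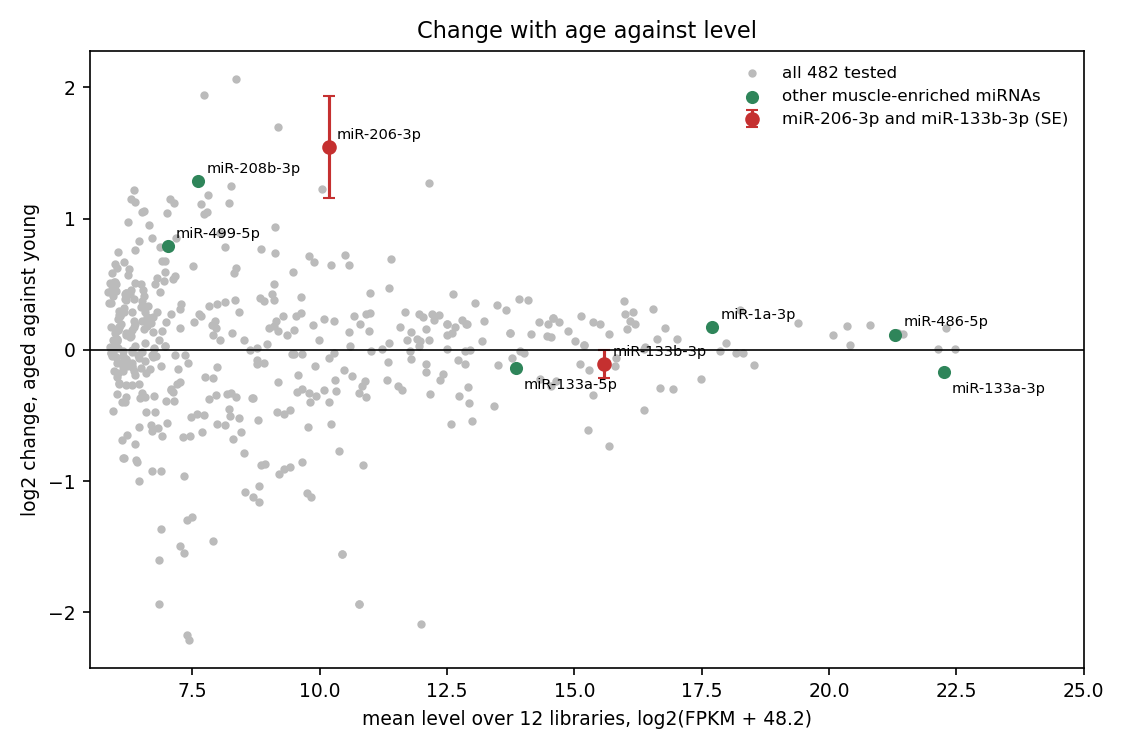
Log2 change in aged against young muscle plotted against mean level over the 12 libraries, log2(FPKM + 48.2), for 482 tested miRNAs, with miR-206-3p and miR-133b-3p in red (bars are SE) and 6 other muscle-enriched miRNAs in green. miR-206-3p at 1.54 lies above the other muscle-enriched miRNAs, and miR-133b-3p at -0.11 lies among the miRNAs of its level.

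A second list held 12 miRNAs known from muscle regeneration or denervation. Of the 11 tested by limma, 0 passed an adjusted p of 0.05 and none passed by voom, where 14 and 16 of all 482 did. The 11 included 3 under an unadjusted limma p of 0.05, where 62 or 12.9% of all 482 were. Their median log2 change was 0.08 against 0.07 over all 482, with 9 higher and 2 lower against 267 and 215. The 3 were miR-29b-3p, known for acting on matrix genes, at 0.69 (limma adjusted p = 0.164), miR-155-5p at 0.71, and miR-489-3p, known from quiescent satellite cells, at -0.82 (limma adjusted p = 0.344) from 6 libraries above 0. miR-31-5p, also known from satellite cells, was above 0 in 8 libraries, at 0.85 (limma adjusted p = 0.501).

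Since miR-206 is known to respond to the motor nerve, miRNAs of nerve were read beside it. All 7 were above 0 in some library. Of 6 tested by limma 0 passed an adjusted p of 0.05, 0 an unadjusted p of 0.05, and 0 by voom. Of all 482 miRNAs 14 or 2.9% passed by limma adjusted p, 62 or 12.9% by unadjusted p and 16 by voom. With 6 miRNAs, 0 is close to those shares. The summed level of the nerve miRNAs ran from 11058 to 22825 FPKM in young and from 11051 to 17692 FPKM in aged muscle. Most of it came from miR-128-3p (means 7967 and 7189 FPKM) and miR-338-3p (5618 and 6466 FPKM). The others had means of 374 FPKM at most, so the sum says little about them. Another entry gave the same fitted values as miR-338-3p. The neuronal miR-124-3p, above 0 in 8 libraries, had means of 97.7 FPKM in young and 81.3 FPKM in aged muscle, near the level of 1 to a few reads.

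None of the 15 markers of other cell types passed an adjusted p of 0.05 in limma or by voom, where 14 and 16 of all 482 did. In limma 2 of the 15 had an unadjusted p under 0.05, close to the 12.9% of all 482 miRNAs. These 2 were miR-145a-5p of smooth muscle, with a log2 difference of -0.43 (limma adjusted p = 0.0975), and miR-144-3p of red blood cells, with -0.77 (limma adjusted p = 0.189). The smooth muscle list held miR-143-3p, at 0.17 (limma adjusted p = 0.679), but not its other arm. That arm, miR-143-5p, was at -1.09 (limma adjusted p = 0.0497). The summed levels of the ages overlapped in every list. In FPKM they were 3908735 to 5880078 in young and 4812906 to 6120679 in aged muscle for 3 of smooth muscle, and 307743 to 455685 and 336491 to 382329 for 2 of endothelium. For 3 of fibroblasts they were 32455 to 49755 and 32567 to 56508, and for 3 of red blood cells 5828 to 10486 and 3022 to 10507. For 4 of white blood cells they were 8449 to 19468 and 11136 to 24904. The median log2 change was 0.17 for smooth muscle, 0.01 for endothelium, 0.07 for fibroblasts and -0.34 for red blood cells. For white blood cells it was 0.36, with 3 of 4 higher in aged muscle, where 267 of all 482 were higher. This is the direction of miR-206-3p, and also that of the medians of smooth muscle, endothelium and fibroblasts. None of the 4 had an unadjusted limma p under 0.05, and miR-142-3p and miR-142-5p are arms of 1 hairpin. Among these, the neutrophil and monocyte miRNA miR-223-3p had a log2 difference of 0.67 (limma adjusted p = 0.458), miR-142-3p 0.37, miR-142-5p 0.35 and the lymphocyte miRNA miR-150-5p -0.17. No marker of these lists was at 0 throughout. Their part in the level of miR-206-3p was not tested.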

How the data were processed

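Small RNA from 12 gastrocnemius muscles was sequenced. Per the methods, the authors trimmed adaptors, mapped reads to mm10 with BWA and computed FPKM for mature miRNAs of miRBase version 20. The deposited values are log2 of FPKM with 2 decimals, and 0 stands for no read. The methods did not state strand use, and some pairs of entries held identical values. Whether reads were counted on both strands was not tested.

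The log was undone, copies of 1 mature miRNA were summed, and reads were recovered from the value of 1 read with RefSeq lengths (of 2987 values worth under 25 reads, 99.2% came within 0.15 of an integer). Levels were tested as log2(FPKM + 48.2), the pseudocount being the typical smallest nonzero level of a library (median of 12), with limma 3.58.1 in R 4.3.3 (trend, two-sided, Benjamini-Hochberg over 482 miRNAs above 0 in at least 5 libraries). Pairs of miRNAs were compared by exact permutation of the libraries. The fit was also run on simulated data with the same spread set for all miRNAs, which does not bear on the call of miR-206-3p. Python 3.11.15, NumPy 2.4.6, pandas 2.3.3 and SciPy 1.17.1 were used. Voom and leaving out the shallowest libraries were chosen after seeing the data. Members, lists and tests were chosen with earlier results of these data known. The labels do not say that replicates are separate animals, while the methods give 6 mice per age. Named were the 4 arms, miRNAs of the same seed, list members, the 3 most alike miRNAs and the unlisted miR-143-5p. miR-142a was listed as miR-142.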

Additional observations from a re-analysis of the deposited data

How the results depend on the processing

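For miR-206-3p, the limma log2 change against 1.54 was 1.65 with a pseudocount of 1 FPKM (adjusted p = 0.0902), 1.54 with no filter (0.198), 1.54 without trend (0.139), 1.54 with depth as a covariate (0.0613), 1.65 with zeros kept as values (0.0885), 1.57 without the deepest library of each age (0.0655) and 1.54 by exact permutation (0.155), each losing the call, and 1.19 to 1.86 when 1 library was left out. The number of called miRNAs was 14, and it was 6 with a pseudocount of 1 FPKM, 7 with no filter, 8 with a filter on the mean, 8 with depth as a covariate, 6 with zeros kept, and 0 by exact permutation, where 66 had an unadjusted p under 0.05 and the smallest possible p is 0.00216. Leaving out 1 library gave 6 to 16, the lowest being 6 without young replicate 3, 7 without aged replicate 2, 8 without aged replicate 3 or 5, and 9 without aged replicate 1, 4 or 6. For miR-133b-3p all 27 settings stayed negative and above 0.05. The ratio of miR-133b-3p to miR-133a-3p changed sign without young replicate 4 (-0.0037) and without the shallowest library of each age (-0.0148), and ran from -0.0037 to 0.11 with 1 library left out. The r of both guide arms in aged muscle ran from -0.07 to 0.77 with 1 library left out, changing sign without aged replicate 1 (-0.0734). With the replicate number as a block, miR-206-3p kept 1.54 (limma adjusted p = 0.0102) and 14 miRNAs were called. Replicate numbers did not pair the samples (r of deviations from -0.09 to 0.09, 0 of 6 best with their own number). Arm balances and passenger arms, with no reads, have no values under any setting. The causes were not tested. Depth limits miR-206-3p in young muscle, where 4 of 6 libraries had 6 reads or fewer.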
